A study of Mus musculus with 3 samples.

Results

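Heme is made from glycine and succinyl-CoA along a chain of enzymes that starts in the mitochondrion, passes through the cytosol and ends in the mitochondrion, where iron is inserted. The first enzyme, 5-aminolevulinate synthase, exists in 2 forms encoded by separate genes. Alas1 is used in nearly all cells, and Alas2 is the form of red cell precursors, in which Gata1 is known to activate it. Of 23397 genes in the deposited tables, 9 were taken by name: the synthases Alas1 and Alas2, the glycine carrier Slc25a38, the cytosolic enzymes Alad, Uros and Urod, and the last enzymes Cpox, Ppox and Fech. The step between Alad and Uros was not analysed here.

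RNA came from mouse embryonic stem cells grown into embryoid bodies, floating aggregates of differentiating cells, for 4.75 days. The groups were SclKO (a knockout of Scl, now named Tal1, a transcription factor needed for all blood formation), Gata12KO (labelled as a knockout of Gata1 and Gata2, zinc-finger factors of blood cells) and wild type (WT), with 1 library per group and 3 in all. All 3 lines were cultured alike, in medium with human transferrin at 3 mg/ml, and cells positive for Tie2 and CD31 and negative for CD41 were sorted as endothelium. The labels do not say whether each line was 1 clone.

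With 1 library per group no difference could be tested or checked in replicates, so every comparison below describes these libraries. Levels are given in FPKM, which counts sequenced fragments relative to transcript length and library size, with the bounds the authors deposited, which cover counting error only. The bounds imply 14.6M, 25.0M and 16.5M reads on annotated transcripts in SclKO, Gata12KO and WT. The size rule for a higher or lower gene asked for at least 1 FPKM in any library, a difference of at least 2-fold on the log2(FPKM + 1) scale and bounds that did not overlap. That scale understates the ratios of genes with low values.

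Tal1 had 1.59 FPKM in SclKO, 38.7 in Gata12KO and 51.0 in WT. Gata1 was listed at 0 in SclKO and had 5.66 FPKM in Gata12KO and 4.64 in WT, and Gata2 had 5.81, 44.9 and 12.0 FPKM in the same order. The knockout named by the label Gata12KO does not show in these levels, which cover whole transcripts, and it is referred to by its label throughout. All 12 endothelial markers on the list were above 1 FPKM in each library. Their sums were 358 FPKM in SclKO, 829 in the library labelled Gata12KO and 701 in WT. By the size rule 6 of the 12 were lower and 0 higher in SclKO against WT (median log2 ratio -1.20). Of all genes with at least 1 FPKM in any library, 4.24% were lower and 2.12% higher there. In the library labelled Gata12KO against WT, 0 were lower and 1 was higher (median 0.03). Of all genes at that minimum, 3.75% were lower and 0.767% higher in this comparison, so counts this small are descriptions only.

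Alas2 was the member that differed most between the libraries. It lies on chromosome X, 146981960 to 147005165 on the forward strand (mm9), with 11 exons, and had 0.143 FPKM in SclKO (bounds 0.0348 to 0.290), 1.53 in the library labelled Gata12KO (1.15 to 1.91) and 6.30 in WT (5.63 to 7.00). The bounds of the 3 libraries did not overlap, and WT was the highest. SclKO held 44.2-fold less than WT, with a 95% exact binomial interval of 21.2-fold to 111-fold that covers counting error only. The library labelled Gata12KO held 4.12-fold less than WT (3.35 to 5.12), and 10.7-fold more than SclKO (5.03 to 27.1). The bounds imply 7 reads in SclKO, 121 in the library labelled Gata12KO and 357 in WT, so the SclKO level is the least certain. On the log2(FPKM + 1) scale the ratios were -2.68 for SclKO over WT, -1.53 for the library labelled Gata12KO over WT and 1.15 for the library labelled Gata12KO over SclKO. In a sorted pool, fewer cells that hold a transcript and less of it per cell cannot be told apart.

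**Figure D1:**
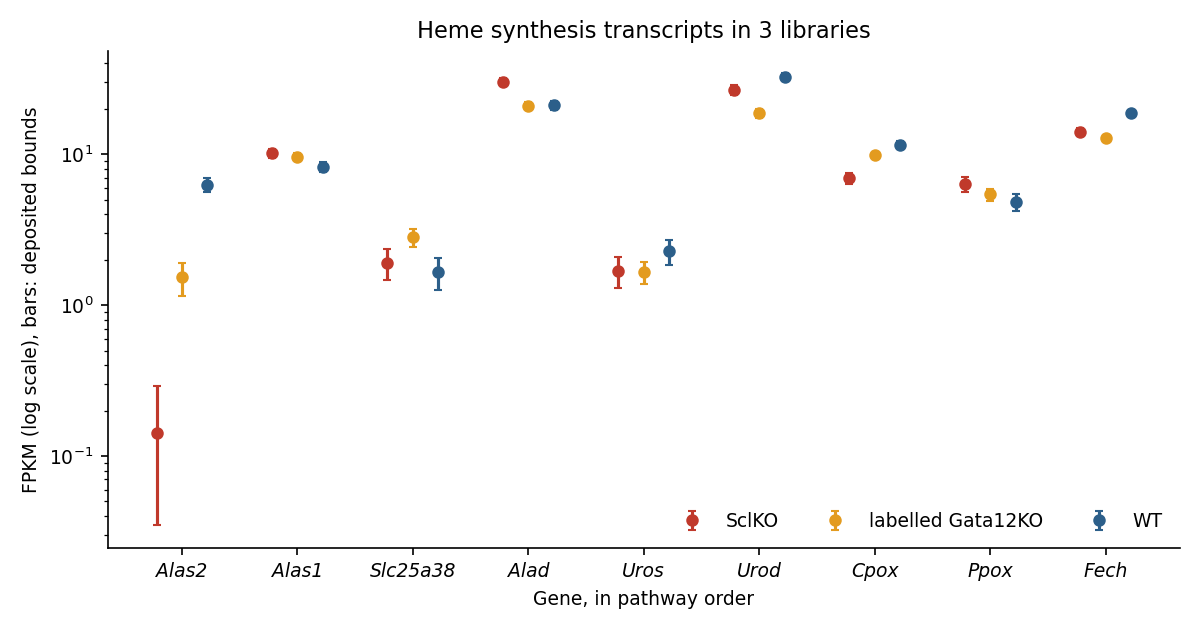
FPKM (log axis) of the 9 heme synthesis genes, in pathway order, in SclKO, the library labelled Gata12KO and WT, 1 library each; points are the deposited values and bars the deposited bounds. Alas2 stands at 0.143, 1.53 and 6.30 FPKM, while Alas1 lies between 8.30 and 10.2 FPKM.

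Upstream sequence is shown for Alas2 and for Cpox. Of the 8 members searched (Fech was not searched here), these held the letters GATAA in their only window. GATAA is the core that GATA factors are known to bind. Uros held it in 1 of 2 windows and is not shown. The bases come from RefSeq promoters on GRCm38.p6, from 250 bases before the annotated start, forward strand, with capitals marking matches to GATAA and CACCC. Each match was read from the opposite strand, so the capitals show its reverse complement. The Alas2 run is chrX:150547167-150547374, cut where another annotation begins its transcript, and the Cpox run is chr16:58669958-58670207.
Alas2: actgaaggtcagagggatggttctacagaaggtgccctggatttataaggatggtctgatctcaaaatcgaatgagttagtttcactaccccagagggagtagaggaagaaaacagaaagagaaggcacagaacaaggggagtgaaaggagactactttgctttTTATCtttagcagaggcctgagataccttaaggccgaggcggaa
Cpox: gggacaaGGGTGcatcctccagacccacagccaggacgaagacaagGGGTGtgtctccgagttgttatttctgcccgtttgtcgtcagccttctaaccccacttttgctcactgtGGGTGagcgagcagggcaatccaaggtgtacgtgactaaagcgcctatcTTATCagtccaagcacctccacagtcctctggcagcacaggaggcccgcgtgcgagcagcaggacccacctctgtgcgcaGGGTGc
In both genes the GATAA match began 86 bases before the RefSeq start. Over the whole 250 bases, searched on both strands, Alas2 had 1 GATAA, 3 CACCC and 0 CANNTG, and Cpox had 1, 4 and 0. The CACCC matches of Alas2 lie beyond the run shown. CACCC resembles the sites of Krüppel-like factors, CANNTG is the E-box read by Scl with its E-protein partners, and none of the matches overlapped a match to another motif. Both windows of Alas1, and those of Ppox, Alad, Urod and Slc25a38, had 0 GATAA, while 1 of 2 Uros windows had 1. Of 32851 RefSeq windows of the same length, 22.6% held GATAA, 52% CACCC and 66.2% CANNTG, so a match is common and is a description of the letters alone.

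The files hold Alas2 as 2 RefSeq transcripts that differ at 1 exon, which is 123 nt long in NM_009653 and 78 nt in NM_001102446. In SclKO the 7 reads were all given to NM_001102446 (0.143 FPKM). In the library labelled Gata12KO, NM_009653 had 1.39 FPKM and NM_001102446 0.141. In WT nearly all of the 6.30 FPKM was on NM_009653, with an upper bound of 0.0363 FPKM for the other. The 7 reads of SclKO are too few to show which form was made there, and sums over both transcripts are used for Alas2.

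Alas1, on chromosome 9, 106135786 to 106150285 on the reverse strand with 11 exons, was close to level across the libraries. It had 10.2 FPKM in SclKO (bounds 9.40 to 10.9), 9.67 in the library labelled Gata12KO (9.12 to 10.2) and 8.30 in WT (7.65 to 8.94). Both knockout-labelled libraries were above WT with separate bounds, by 1.22-fold (1.10 to 1.36) in SclKO and 1.17-fold (1.06 to 1.28) in the library labelled Gata12KO, and overlapped each other. Per transcript length, Alas2 made up 1.39% of the summed Alas1 and Alas2 FPKM in SclKO, 13.6% in the library labelled Gata12KO and 43.1% in WT. As shares of implied reads, rounded to whole reads, these were 0.964% (7 reads against 719 of Alas1, exact binomial interval 0.389 to 1.98), 8.93% (7.46 to 10.6) and 35.1% (32.2 to 38.1). The summed level of both synthases was 10.3 FPKM in SclKO, 11.2 in the library labelled Gata12KO and 14.6 in WT. WT was thus highest for Alas2 and for the sum, and lowest for Alas1.

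By the size rule Alas2 was the only called member in each comparison: below WT in SclKO, below WT in the library labelled Gata12KO and above SclKO in that library. The call rule marked 4.24% of 11080 expressed genes as lower and 2.12% as higher in SclKO against WT. Against WT, it marked 3.75% as lower and 0.767% as higher in the library labelled Gata12KO, and against SclKO 3.38% as higher and 3.75% as lower. The Alas2 ratio ranked at percentile 0.514 among expressed genes in SclKO against WT and at 0.975 in the library labelled Gata12KO against WT. The other 8 members had median log2 ratios of -0.06 and -0.11 in these comparisons, against -0.03 and -0.08 over all expressed genes, and of 0.12 and 0.11 once the trend with transcript length was removed. Both comparisons use the same WT library.

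**Figure D2:**
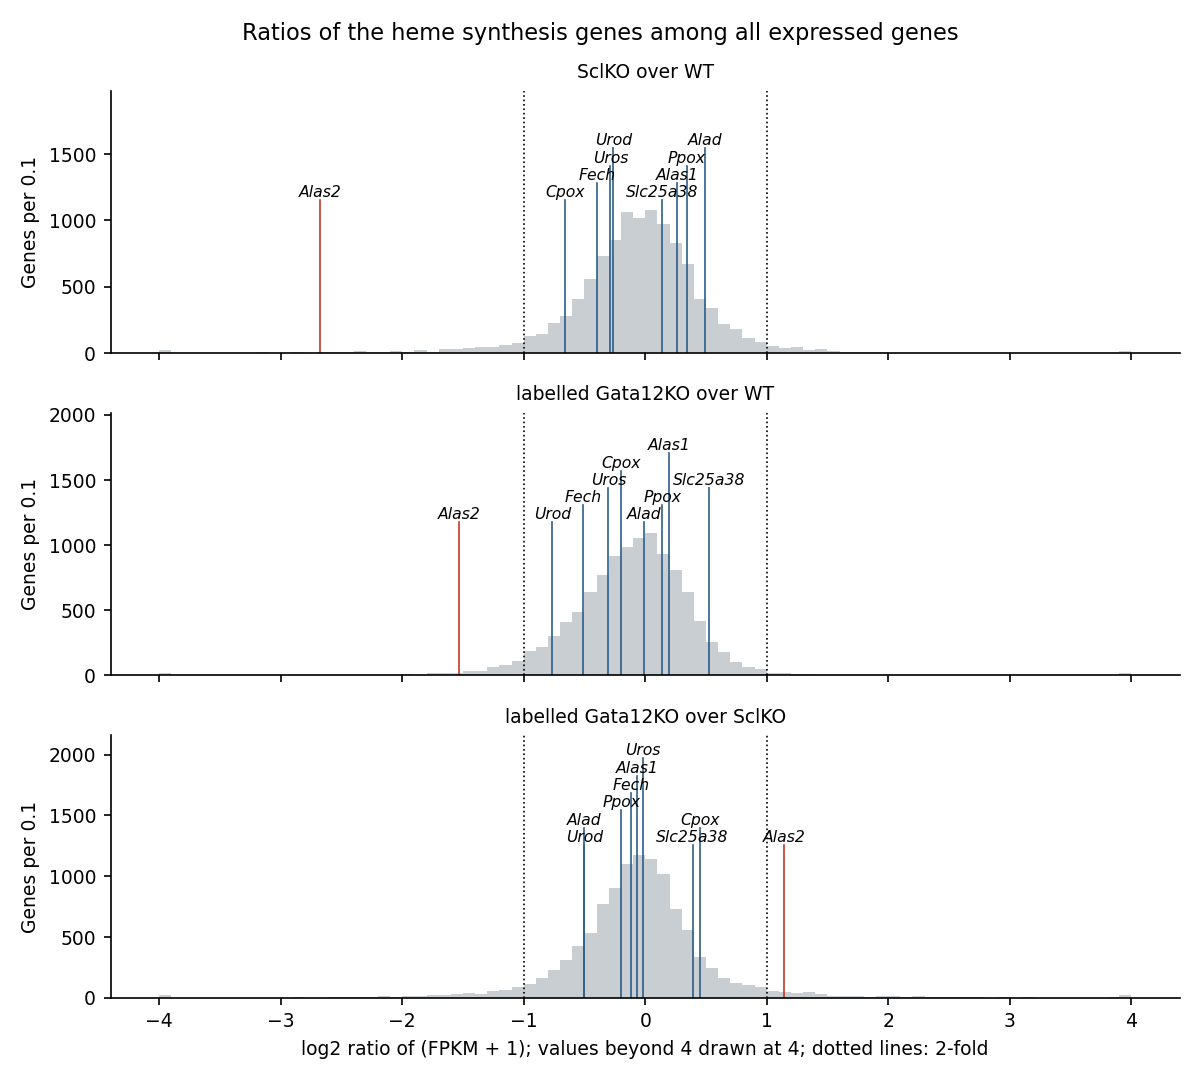
Log2 ratios of (FPKM + 1) of the 9 genes (vertical lines) over the distribution of 11080 expressed genes (grey, genes per 0.1), for the 3 comparisons; dotted lines mark 2-fold. Alas2 lies outside the 2-fold lines in each panel (-2.68, -1.53 and 1.15) and the other 8 genes lie inside.

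Slc25a38, on chromosome 9, 120019517 to 120033437, encodes the carrier known to bring glycine into mitochondria for the first step. It had 1.92 FPKM in SclKO (bounds 1.48 to 2.36), 2.82 in the library labelled Gata12KO (2.43 to 3.22) and 1.66 in WT (1.27 to 2.04). The library labelled Gata12KO stood apart from both others, at 1.71-fold of WT (1.30 to 2.26), while SclKO and WT overlapped. Its log2 ratio to WT there was 0.53, short of the 2-fold limit, and 0.82 after the trend with transcript length was removed. Its order over the libraries was not that of Alas2.

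Among the cytosolic enzymes, Alad, which joins molecules of 5-aminolevulinate into a pyrrole, had 30.2 FPKM in SclKO (bounds 28.3 to 32.1), 21.0 in the library labelled Gata12KO (19.8 to 22.2) and 21.2 in WT (19.7 to 22.7). SclKO was 1.43-fold above WT (1.30 to 1.57), and the library labelled Gata12KO overlapped WT. Urod, which trims the side chains of the porphyrinogen ring, had 26.8 FPKM in SclKO (24.9 to 28.8), 18.7 in the library labelled Gata12KO (17.5 to 19.9) and 32.4 in WT (30.4 to 34.4). All 3 were separate, with the library labelled Gata12KO 1.74-fold below WT (1.59 to 1.90). Uros, which closes the ring, had 1.69 FPKM in SclKO (1.30 to 2.07), 1.66 in the library labelled Gata12KO (1.37 to 1.94) and 2.28 in WT (1.86 to 2.70), and its bounds overlapped in every pair.

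Of the last enzymes, Cpox, which makes protoporphyrinogen, had 6.95 FPKM in SclKO (bounds 6.38 to 7.52), 9.90 in the library labelled Gata12KO (9.39 to 10.4) and 11.5 in WT (10.8 to 12.2). All 3 were separate, and SclKO was 1.66-fold below WT (1.50 to 1.84), the lowest ratio in SclKO after that of Alas2. Ppox, which oxidises that product to protoporphyrin, had 6.36 FPKM in SclKO (5.62 to 7.11), 5.42 in the library labelled Gata12KO (4.91 to 5.93) and 4.82 in WT (4.21 to 5.43). SclKO was above WT by 1.32-fold (1.11 to 1.57), and the library labelled Gata12KO overlapped both. Fech, which inserts iron into protoporphyrin, had 14.1 FPKM in SclKO (13.2 to 14.9), 12.9 in the library labelled Gata12KO (12.3 to 13.5) and 18.8 in WT (17.9 to 19.8). Both were below WT, by 1.34-fold (1.24 to 1.45) in SclKO and 1.46-fold (1.36 to 1.56) in the library labelled Gata12KO, and overlapped each other.

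Bounds separate from WT at any fold were thus found in SclKO for 3 of the 8 members other than Alas2 as higher (Alas1, Alad and Ppox) and for 3 as lower (Urod, Cpox and Fech). In the library labelled Gata12KO 2 were higher (Alas1 and Slc25a38) and 3 lower (Urod, Cpox and Fech, of which Cpox and Fech changed sign under scaling to a common sum of FPKM). Of all expressed genes, 26.3% were separate and higher and 31.6% separate and lower in SclKO, and 24.2% and 37.6% in the library labelled Gata12KO, so separate bounds at a small fold were common at this depth. Added up, the 8 members came to 98.2 FPKM in SclKO, 82.1 in the library labelled Gata12KO and 101 in WT.

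The order of levels was much the same in each library apart from Alas2. In SclKO it ran Alad, Urod, Fech, Alas1, Cpox, Ppox, Slc25a38, Uros and Alas2, with overlapping bounds between Alad and Urod, Cpox and Ppox, and Slc25a38 and Uros. In the library labelled Gata12KO it ran Alad, Urod, Fech, Cpox, Alas1, Ppox, Slc25a38, Uros and Alas2, with overlaps between Alad and Urod, Cpox and Alas1, and Uros and Alas2. In WT it ran Urod, Alad, Fech, Cpox, Alas1, Alas2, Ppox, Uros and Slc25a38, with overlaps between Alad and Fech and between Uros and Slc25a38. Alas2 moved up to the sixth place in WT, between Alas1 and Ppox, and ranked at percentile 43.2 of expressed genes there, against 1.09 in SclKO and 12.8 in the library labelled Gata12KO. Ratios between different genes rest on FPKM, which is per transcript length.

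Ratios of the library labelled Gata12KO to WT followed transcript length over all genes, and length bears on the smaller differences. The fifth of genes with the shortest transcripts (312 to 1532 nt) had a median of -0.47, against 0.12 for the fifth with the longest (4575 to 23495 nt). In SclKO against WT the same medians were -0.25 and 0.09. Removing the trend left Alas2 lower in the library labelled Gata12KO (-1.53 became -1.36) and in SclKO (-2.68 became -2.59). Urod, at 1199 nt the shortest member, moved from -0.76 to -0.34, and Alad, at 1350 nt, from -0.01 to 0.33. Cpox (3184 nt, -0.20 and -0.21) and Fech (2901 nt, -0.51 and -0.43) moved little. Rescaling to the summed FPKM (TPM), which raised the median log2 ratio of expressed genes against WT from -0.08 to 0.51, turned the signs of Cpox (0.44), Fech (0.14), Uros (0.17) and Alad (0.66) in that library, and left Alas2 lower (-1.07) and Urod below 0. Rescaling over transcripts of 300 nt or longer turned Cpox (0.08) and Alad (0.29).

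**Figure D3:**
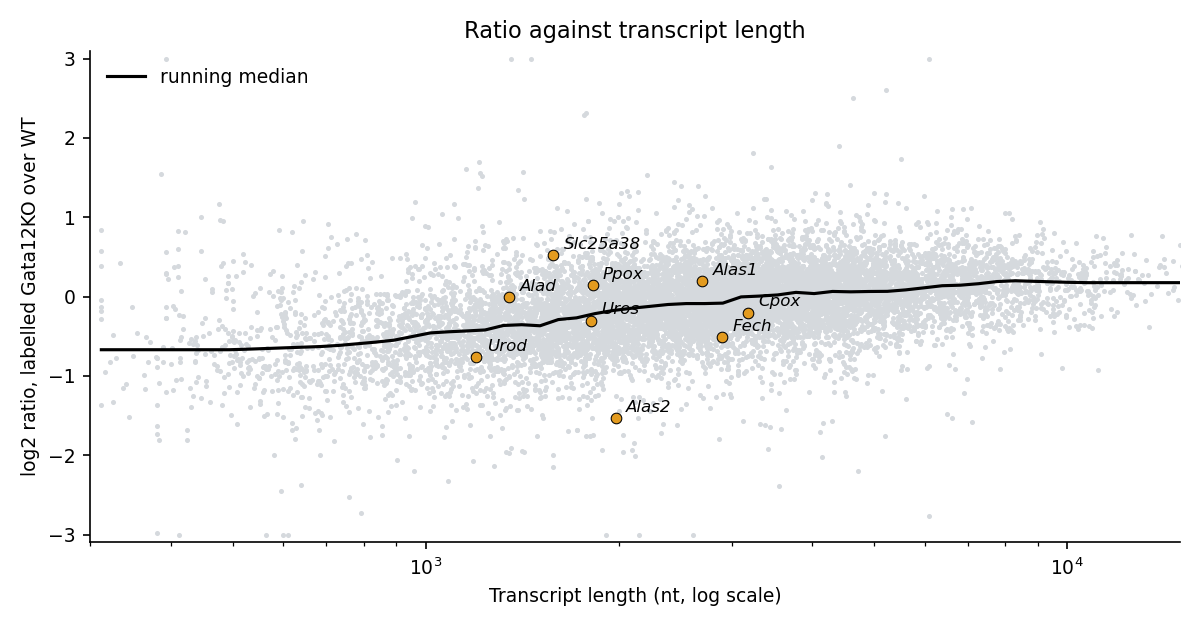
Log2 ratio of (FPKM + 1), library labelled Gata12KO over WT, against transcript length (log axis) for expressed genes of 300 nt or longer (grey), with their running median (line) and the 9 heme synthesis genes (orange). Urod (-0.76) lies below 0 where the running median does too, and Alas2 (-1.53) lies well below the line.

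The erythroid markers that reached 1 FPKM were, like Alas2, highest in WT. Of 26 matched erythroid markers other than heme enzymes, 3 reached 1 FPKM in SclKO, 6 in the library labelled Gata12KO and 11 in WT. Of the 11, 10 were lower than WT in SclKO and 7 in the library labelled Gata12KO, and none was higher. Their medians were -2.98 and -1.68, or -2.83 and -1.04 with the trend with length removed. Over all 26 the medians were -0.33 and -0.26, as the others stayed under 1 FPKM in every library. All 11 reached the minimum in WT, where they were highest, so this count is a description only. In the library labelled Gata12KO over SclKO, where Alas2 was higher, 4 of the 11 were higher and 7 lay between the limits. Hba-x and Klf1, an erythroid transcription factor (0.106, 0.0727 and 0.798 FPKM in SclKO, the library labelled Gata12KO and WT), had the lower value in the library labelled Gata12KO. Summed over all 26, the markers came to 15.0 FPKM in SclKO (summed bounds 12.3 to 17.9), 67.2 in the library labelled Gata12KO (62.1 to 72.5) and 272 in WT (249 to 294). Listed at 0 were 11 of them in SclKO, among them Slc4a1 of the red cell membrane and Hba-a1, 8 in the library labelled Gata12KO, among them Hba-x and Slc4a1, and 2 in WT, Trim58 and Car1. The part of such cells in the Alas2 differences was not tested.

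The embryonic globins Hbb-bh1 and Hba-x were the most abundant erythroid markers of WT. Hbb-bh1 had 0.258 FPKM in SclKO, 5.66 in the library labelled Gata12KO and 76.8 in WT, and Hba-x had 0.0881 in SclKO, was listed at 0 in the library labelled Gata12KO and had 71.3 in WT. Nfe2, a factor of erythroid and megakaryocyte cells, had 0.217, 1.96 and 8.60 FPKM in SclKO, the library labelled Gata12KO and WT, an order like that of Alas2. Car2, a carbonic anhydrase of red cells and other tissues, lay nearer to WT in the library labelled Gata12KO, with 6.44 FPKM in SclKO, 46.1 in the library labelled Gata12KO and 66.7 in WT. Epor, the erythropoietin receptor, had 1.04, 2.44 and 4.41 FPKM in the same order and was called in SclKO. Hba-a2, Hbb-y, Gfi1b, Epb42 and Hbb-b2 were also lower in SclKO, and all of them but Epb42 in the library labelled Gata12KO. The calls of Hbb-b2 ended when the trend with length was removed, which left 9 and 6 lower markers. Globin genes have near-identical copies, so their split of reads is uncertain.

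**Figure D4:**
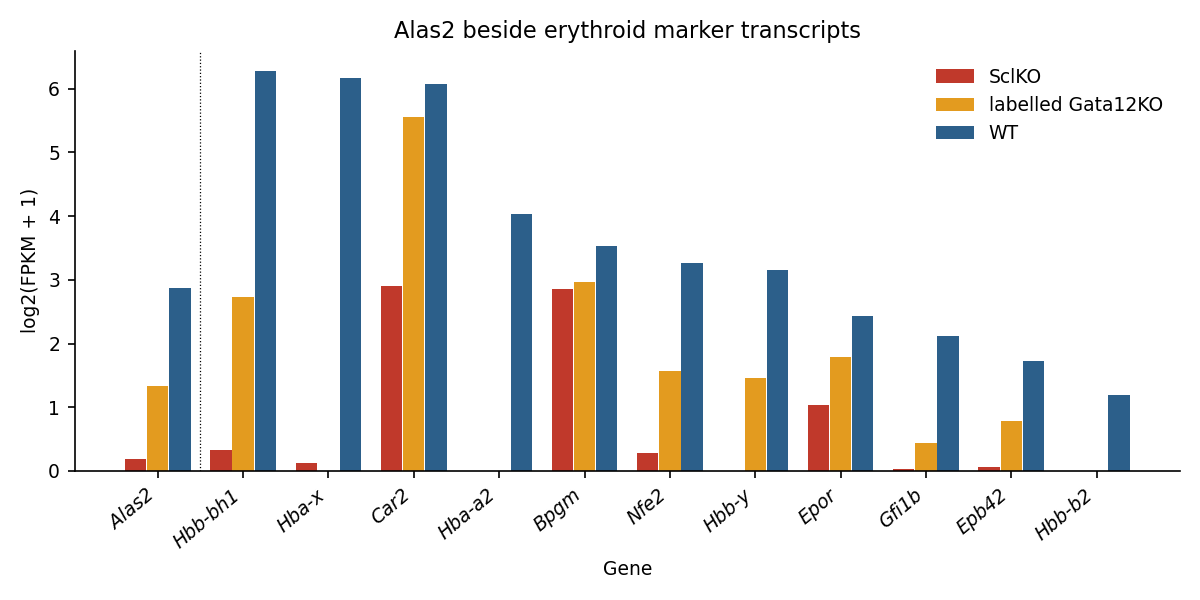
Log2(FPKM + 1) of Alas2 (left of the dotted line) and of the 11 erythroid markers with at least 1 FPKM in any library, in SclKO, the library labelled Gata12KO and WT, ordered by WT level. WT bars are the tallest for Alas2 (6.30 FPKM) and for all 11 markers, and Bpgm differs least in SclKO.

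Markers of other cells gave the following sums. Megakaryocyte markers summed to 1.89 FPKM in SclKO, 19.9 in the library labelled Gata12KO and 29.7 in WT, with Ppbp and Gp6 listed at 0 in each. In the library labelled Gata12KO and in WT most of this sum was Itga2b, with 0.333, 17.6 and 22.8 FPKM in the same order of libraries, which encodes CD41, the antigen the cells were sorted as lacking. Leukocyte markers summed to 2.33, 8.77 and 29.1 FPKM, with Ptprc and Csf1r at 0 in SclKO and WT. Of these 8, 5 reached 1 FPKM in WT and, like Alas2, were highest there. All 5 were lower in SclKO (median -2.58) and 4 in the library labelled Gata12KO (median -1.35), or 2 with the trend with length removed. Over all 8 the medians were -1.27 and -0.95. Of all expressed genes 4.24% and 3.75% were lower, and as the 5 were highest in WT, these counts are descriptions only. Hepatic and visceral endoderm markers, cells in which heme enzymes can be high, summed to 1.09, 1.60 and 3.06 FPKM. Cardiac and mesenchymal markers summed to 57.3, 20.0 and 29.7 FPKM, highest in SclKO. The part of these cells in the differences of Alas1, Alad or Cpox was not tested.

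The genes whose pair of log2 ratios to WT lay nearest to that of Alas2, by Euclidean distance over 3 libraries among 10404 genes, were Edn1, Tyrobp, Plcg2, Ackr1 and Fxyd7, at distances of 0.0741 to 0.230. Edn1, which encodes the vasoconstrictor peptide endothelin, had 0.330 FPKM in SclKO, 1.78 in the library labelled Gata12KO and 7.45 in WT. Ackr1, an atypical chemokine receptor found on red cells and venules, had 0.111, 1.36 and 5.30 FPKM. None of the 5 is a heme gene. Nearest to Alas1 were Nit1, Znrf3, Fkbp15, Ybx2 and Alg2, at distances of 0.00630 to 0.0115.

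Calls among genes around the pathway are counted here and below. Over all expressed genes the rule marked 4.24% as lower and 2.12% as higher in SclKO against WT. In the library labelled Gata12KO against WT it marked 3.75% and 0.767%. For lists this short, 0 or few calls are near those shares, so the counts are descriptions only. Of 9 genes supplying glycine and succinyl-CoA, 0 passed the rule in SclKO or the library labelled Gata12KO against WT, with medians of 0.02 and -0.07. Shmt2, which makes glycine in mitochondria, had 61.7 FPKM in SclKO, 45.9 in the library labelled Gata12KO and 37.5 in WT. Of 7 expressed regulators of heme synthesis among 9 matched, 0 passed, with medians of -0.04 and 0.07. Nfe2l2, a stress-response factor, had 9.67 FPKM in SclKO, 13.6 in the library labelled Gata12KO and 13.1 in WT. Eif2ak1, the heme-sensing kinase, had 4.99 FPKM in SclKO, 5.13 in the library labelled Gata12KO and 4.58 in WT, and Bach1, a repressor released by heme, had 4.54, 4.59 and 4.43. Of 3 genes for heme attachment and modification 0 passed, with medians of -0.16 and -0.13, and Hccs, which joins heme to cytochromes c, had 5.59, 8.59 and 9.46 FPKM.

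Of 11 expressed iron uptake and storage genes, 0 passed against WT, with medians of 0.00 and -0.07. The ferritin chains were the most abundant: Fth1 had 947 FPKM in SclKO, 1220 in the library labelled Gata12KO and 1347 in WT, and Ftl1 had 771, 634 and 1195. Both were highest in WT as deposited. Removing the trend with length took the log2 ratio of the library labelled Gata12KO to WT from -0.14 to 0.42 for Fth1. For Ftl1 it went from -0.91 to -0.42. The transferrin receptor Tfrc had 10.9 FPKM in SclKO, 16.6 in the library labelled Gata12KO and 10.7 in WT, and Slc40a1, the iron exporter, had 3.00, 1.56 and 2.77. Of 12 genes of mitochondrial iron import and iron-sulfur clusters, 0 passed against WT in SclKO (median -0.17) or in the library labelled Gata12KO (median -0.31). The most abundant was Hspa9, a mitochondrial chaperone, with 77.6 FPKM in SclKO, 79.2 in the library labelled Gata12KO and 77.2 in WT. The erythroid iron carrier Slc25a37 had 3.34, 2.42 and 2.94 FPKM, and its relative Slc25a28 had 2.73, 3.08 and 2.77, so neither followed Alas2.

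Of 9 expressed heme and porphyrin transport genes, 1 was lower in SclKO (median -0.14) and 1 in the library labelled Gata12KO (median -0.44), with medians of -0.04 and 0.00 over all 12 on the list. Slc48a1, which moves heme out of lysosomes, was called in SclKO, with 2.52 FPKM in SclKO, 4.94 in the library labelled Gata12KO and 8.07 in WT. Tmem14c, a mitochondrial protein needed for porphyrin import in red cells, was called in the library labelled Gata12KO, with 63.4, 47.4 and 107 FPKM in that order of libraries. Abcg2, a porphyrin exporter, had 40.7, 35.2 and 33.8 FPKM, and Flvcr1, a heme exporter, had 2.42, 3.95 and 3.26. Of 4 heme degradation genes, 0 passed in SclKO (median -0.05), and in the library labelled Gata12KO 1 was lower (median -0.12). It was Blvrb, a biliverdin reductase, with 30.1 FPKM in SclKO, 15.5 in the library labelled Gata12KO and 39.4 in WT. The inducible heme oxygenase Hmox1 had 35.0, 50.1 and 37.6 FPKM, and Hmox2 had 29.6, 27.4 and 29.2. The calls of Tmem14c (-1.16 became -0.66) and Blvrb (-1.29 became -0.72) ended once the trend with length was removed, while that of Slc48a1 in SclKO did not. The medians of several lists turned sign as well: in the library labelled Gata12KO they became 0.08 for substrate supply, 0.15 for iron uptake and storage, 0.10 for mitochondrial iron and 0.31 for heme degradation, and in SclKO -0.10 for iron uptake and storage, 0.00 for mitochondrial iron and 0.14 for heme degradation.

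**Figure D5:**
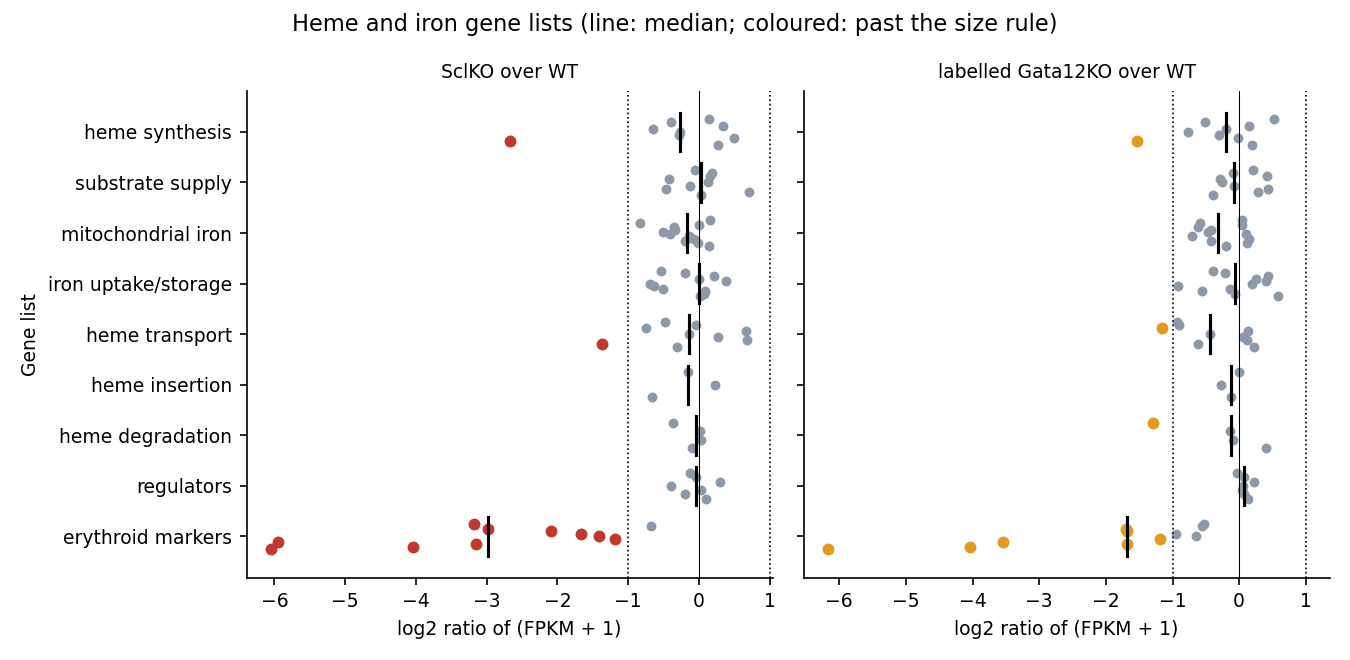
Log2 ratios of (FPKM + 1) to WT of the expressed members of 9 gene lists in SclKO (left) and the library labelled Gata12KO (right); points are genes, coloured where past the size rule, and black lines are medians. The 11 erythroid markers drawn all reached 1 FPKM in WT. Their medians are -2.98 and -1.68 (-0.33 and -0.26 over all 26). With the trend with length removed those of the 11 are -2.83 and -1.04. The heme synthesis list has medians of -0.26 and -0.20, with Alas2 apart from the rest.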

How the data were processed

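RNA of 3 libraries, SclKO, Gata12KO and WT, 1 per group, was sequenced as 50 nt reads, per the labels' protocols. The deposited FPKM values and bounds were written by Cufflinks, per the file headers' source field. The submitters' processing notes list TopHat2 2.0.4, Cufflinks 2.0.1 and Cuffdiff, and mm9 and hg19 as builds. Use of strand in counting is not stated, but no other entry overlapped a member. Each file lists 30123 RefSeq entries. Symbols came from RefSeq and GENCODE tables, 134 entries whose names differed between files were left out, and FPKM and bounds were summed per symbol. Reads were implied from the bounds, taken as 2 Poisson standard deviations. Ratios used a pseudocount of 1 FPKM. The size rule was run on simulated data, with changes set only in genes above the Alas2 level and with counting error alone. That run does not cover differences between cultures or genes as low as Alas2. Values were computed with Python 3.11.15, pandas 2.3.3 and SciPy 1.17.1. Of list genes, Atp5if1, Hbb-b1 and Ahsp had no match, and a few are not reported here. The length trend was a running median over 40 bins of transcripts of 300 nt or longer. Genes named were the 9 members, the targeted genes, list genes past the rule, up to 4 of the most abundant others of each list and the 5 nearest to Alas2 and Alas1; a few list genes (Eif2ak1, Bach1, Klf1, Tfrc, Slc40a1, Slc25a37, Slc25a28, Flvcr1) were added after their values were seen. The members and lists were chosen with earlier results of these data known. Alternatives changed the pseudocount, minimum, scaling, length trend, fold limit, bounds and use of transcripts.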

Additional observations from a re-analysis of the deposited data

How the results depend on the processing

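No paired analysis was possible because each group has 1 library, which also leaves no replicate to drop. Alas2 kept its call and direction in each comparison under all 10 alternatives. Some of these could not end the call. No minimum, a 1.5-fold limit and no condition on bounds only loosen the rule, and Alas2 in WT (6.30 FPKM) already met a minimum of 5 FPKM. A pseudocount of 0.1 FPKM could only widen the ratios of Alas2, and it gave the widest ones (-4.72, -1.97 and 2.75). The log2 ratios of Alas2 ran from -4.72 to -2.59 for SclKO over WT and from -1.97 to -1.07 for the library labelled Gata12KO over WT. For that library over SclKO they ran from 1.15 to 2.75. With a 1.5-fold limit 2 members were called in SclKO (Cpox added) and 2 in the library labelled Gata12KO against WT (Urod added), and the called genes over all genes came to 2122, 2079 and 2126 in these 3 comparisons (705, 500 and 791 at 2-fold), with 20, 19 and 12 in the gene lists (11, 9 and 4 at 2-fold). Rescaling to the summed FPKM (TPM) gave 2 called members against WT (Slc25a38 added) and 3 against SclKO (Cpox and Slc25a38 added) in the library labelled Gata12KO, 1366 and 2186 called genes and 21 list genes against SclKO. It moved the median gene to 0.51 and 0.65 on the log2 scale, and the share of lower calls from 83% to 7.98% against WT and from 52.6% to 5.21% against SclKO. Rescaling over transcripts of 300 nt or longer gave lower shares of 53.1%, 44.1% and 38.9%. A pseudocount of 0.1 FPKM gave 1219, 943 and 1285 called genes and 9 list genes for the library labelled Gata12KO over SclKO. A minimum of 5 FPKM left 7 list genes in SclKO against WT, and removing the length trend left 320 called genes for the library labelled Gata12KO over WT, of which 51.6% were lower. Using 1 transcript per gene took the Alas2 share of synthase FPKM in SclKO to 0.000302%, because its reads were on the other transcript. As shares of implied reads, not rounded to whole reads, it was 8.95% in the library labelled Gata12KO and 35.1% in WT.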
